A study of Rattus norvegicus with 7 samples.

Results

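The 150 loci described here are the most abundant short small nucleolar RNAs (snoRNAs) of the developing rat retina. They were taken from 5491 noncoding features, of which 416 are annotated as snoRNA. A locus of 50 to 99 bases, the usual size of box C/D snoRNAs, was required, which left 228 loci, and 200 of them were not copies of the imprinted SNORD115 and SNORD116 genes. The 150 members are those with the highest mean FPKM over the 7 ages, so they were chosen by the measured levels themselves. FPKM is a fragment count scaled to locus length and library size. The choice is used below as a description only, without a test. Retinas of untreated Wistar WU rats kept on a 12:12 light/dark cycle were collected at postnatal days 1, 3, 5, 7, 10, 15 and 21 (P1 to P21). Total RNA of 3 retinas was pooled at each age, enriched for small RNA and sequenced on an Ion Torrent instrument, giving 1 value per locus and age. The sequencing of each pool was repeated, per the study's methods, but the deposited values do not separate the runs, and runs of a pool are not replicates of animals. There is no other genotype, strain or treatment, and no value of a replicate of an age, so no spread between animals can be given and no test between ages was possible. Whole retinas were used, and in such bulk RNA fewer cells of a type and less RNA per cell cannot be told apart.

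Box C/D snoRNAs guide the methylation of the ribose in ribosomal RNA. Each carries a C box and a D box that hold the core proteins, fibrillarin, Nop56, Nop58 and Snu13, and next to the D box a stretch that pairs with the target. Most vertebrate members lie in introns of host genes and are released by trimming of the spliced intron, and many of these hosts encode ribosomal proteins, translation factors or nucleolar proteins. Box H/ACA snoRNAs, which are longer, guide the conversion of uridine to pseudouridine. A few box C/D RNAs act in the cleavage of the rRNA precursor, and others, called orphans, have no known rRNA target. In the early postnatal retina of the rat, late progenitors still divide and rod photoreceptors, bipolar cells and Müller glia are born.

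The start regions of some host genes are shown because every member of these hosts named below was higher at P3 than at P1, as most of the 150 members were. By symbol and chromosome, 62 members matched a snoRNA of the RefSeq annotation of the GRCr8 assembly. For 50 of them the matched entry lies within a named gene, 28 genes in all. Positions were not matched, and a single entry can stand for several loci of a symbol. The sequences are RefSeq's, run 5′ to 3′ on the strand of the gene, and hold 40 bases before the annotated start and 40 from it on. Capitals mark a C followed by at least 6 further C or T, within 25 bases of the start on either side. The pattern resembles, in its letters only, the terminal oligopyrimidine tract of translation genes, and it did not have to begin at the start. It was searched on the strand of the gene only, and it overlaps no other motif searched.
Rps12, chr1:23500035-23500114, forward strand: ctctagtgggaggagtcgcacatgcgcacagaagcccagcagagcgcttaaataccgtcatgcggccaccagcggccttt
Gas5, chr13:75836923-75837002, forward strand: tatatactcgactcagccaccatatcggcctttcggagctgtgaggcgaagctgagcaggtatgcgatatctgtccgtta
Rack1, chr10:33670510-33670589, forward strand: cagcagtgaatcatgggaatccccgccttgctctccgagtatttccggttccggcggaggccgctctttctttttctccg
Rpl13a, chr1:104748874-104748953, reverse strand: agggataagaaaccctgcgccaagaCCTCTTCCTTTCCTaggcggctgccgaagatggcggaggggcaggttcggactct
Rpl7a, chr3:30637096-30637175, forward strand: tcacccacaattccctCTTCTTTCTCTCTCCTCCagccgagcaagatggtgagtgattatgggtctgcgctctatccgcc
By this match, Rps12 holds SNORD100, the member with the highest mean level, Gas5 holds 2 matched members and Rack1 holds 3. Rpl13a and Rpl7a carry the marked letters, 14 and 18 bases. In both, these letters end before the annotated start, so by this annotation they lie outside the transcript. In Rpl7a further C and T lie directly before the marked letters, so the whole run is longer. The pattern was found in 10 of the 26 host promoters listed (38.5%) and in 7322 of all 33469 promoters of the same length (21.9%). The host Prrc2b enters the list with overlapping windows, chr3:35863006-35863085 and chr3:35863011-35863090, which hold the same run of 13 bases. Not all of the 28 named genes are in the list. A match is a description of the letters and not of a site, and where it is missing only these letters are missing from this window. The sequences of the snoRNAs themselves were not used here.

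The estimated number of aligned reads per library lay between 314471 at P1 and 1351886 at P21. These numbers come from the steps between low FPKM values, of which P1 showed 1, each age from P3 to P15 showed 2 and P21 showed 4. In this P1 differs from every age it is compared with, and whether the steps stem from the repeated runs is not stated. After P1 the numbers assume that the steps of a library gave equal signal. Without this assumption, the P15 library could hold between 126697 and 769778 alignments. Intervals below are 95% counting intervals. They rest on an effective count, the level divided by the mean step of the library. Where a library has several steps, this count is smaller than the alignments printed here. The intervals cover counting error only, since reads amplified by PCR may stem from a single molecule. At P1, 59 of the 150 members had fewer than 10 alignments and 26 had fewer than 4, whereas at P3 only 3 members had fewer than 10. One alignment is worth 253 FPKM at 50 bases and 58.2 FPKM at 99 bases in the P1 library, 4.35 times less, so a ranking by FPKM favours the shortest loci. Ranked by the mean of the alignments, 147 of the members would again have been chosen from the 200 eligible loci.

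The label was checked by the names. Of the 150 loci, 132 have a SNORD name, the name of box C/D snoRNAs, and 13 have another snoRNA name, such as snoZ17 or snoR38. Another 4 have a SNORA name, which marks box H/ACA snoRNAs, and 1 is Mir664-1, a miRNA gene that the files list as a snoRNA. The locus spanned at least 80% of the annotated gene in 131 of the 132 SNORD loci and in all 13 loci with other names, and it ran past the annotated gene in 22 and 3 of them. It spanned less in all 4 SNORA loci, whose genes of 126 to 137 bases are covered over 50 to 79 bases, and in Mir664-1, covered over 73 of 98 bases. By their names, the label box C/D does not hold for these 5 loci, whose genes are longer than the covered part. The last exception is a SNORND104 locus of 50 bases in a gene of 70 bases. The 80% limit was chosen after the values were seen. The C and D boxes could not be read without the sequences.

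At the lower end of the ranking, the last members were a SNORD113 copy with a mean of 1222 FPKM and SNORA8 with 1147 FPKM. Just outside, loci of SNORA17 and SNORD35 had means of 1108 and 1046 FPKM. SNORA17, SNORD35 and SNORD113 also have loci within the set. The members carry 85 symbols, of which 28 belong to several loci, 93 loci in all, and 57 loci have a symbol of their own. Loci of 1 symbol can share reads, and the counting of such reads is not stated, so the division of a level between them is uncertain. The loci lie on 17 chromosomes and have a median length of 78 bases.

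The most abundant member was SNORD100 (gene at chr1:22759629-22759703 in the Rnor_6.0 assembly, like all snoRNA positions given here), a guide of 18S rRNA methylation in an intron of the ribosomal protein gene Rps12. Its level was 16865 FPKM at P1, then 1480000 at P3, 322513 at P5 and 222210 at P7, and later 265268 at P10, 92725 at P15 and 89889 by P21. P3 stood above all other ages and P1 below them, with P3 87.8-fold (95% counting interval from 75.2 to 102) above P1. LOC252890, the Z39 snoRNA (chr2:14700078-14700137), had 68535 FPKM at P1, then 863218 at P3, 252411 at P5 and 190691 at P7, and later 311802 at P10, 166288 at P15 and 159148 by P21. It was the highest member at P1, P10, P15 and P21, and its ratio of P3 to P1 was the smallest among the 10 most abundant members, 12.6-fold (95% counting interval from 11.4 to 13.9). SNORD48 (chr20:4873199-4873262), a guide of 28S rRNA, had 13260.4 FPKM at P1, then 1260000 at P3, 216229 at P5 and 128074 at P7, and later 179064 at P10, 42907 at P15 and 28340.4 by P21, and its P3 level was 95-fold (95% counting interval from 77.3 to 117) that of P1.

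SNORD74, a 28S guide of the noncoding host gene Gas5, had 16533 FPKM at P1, then 753615 at P3, 174519 at P5 and 122523 at P7, and later 158351 at P10, 51280.5 at P15 and 57879 by P21. One locus of SNORD42, an 18S guide in Rpl23a, had 6198 FPKM at P1, then 746134 at P3, 207429 at P5 and 125165 at P7, and later 127133 at P10, 32043 at P15 and 23369.6 by P21. Both were far above all other ages at P3, 45.6-fold above P1 for SNORD74 and 120.4-fold for SNORD42. Among the 10 most abundant members this SNORD42 locus had the largest ratio of P3 to P1, with an interval from 89.6 to 162. The remaining 5 of the 10 were snoZ17, SNORD49, SNORD73, snosnR60_Z15 and SNORD45. At P3 their levels were 560995, 541558, 376261, 409579 and 439860 FPKM, and at P1 they were 17915, 5584, 4798, 6947 and 3955 FPKM. The 10 members with the highest mean held 47.8% of the summed FPKM of the set at P3 and 40.5% at P1, so a few loci carried much of the total at either age.

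Summed over the 150 members, the level was 396489 FPKM at P1, then 15545151 at P3, 3120594 at P5 and 2606734 at P7, and later 3285299 at P10, 1314679.7 at P15 and 1351831 by P21. The sum at P3 made up 56.3% of the members' FPKM over all ages, and P1 had the lowest sum. The median member had 1204 FPKM at P1, then 29922 at P3, 6102 at P5 and 6401 at P7, and later 6677 at P10, 3273 at P15 and 3779.9 by P21. The course was therefore a peak at P3, a plateau from P5 to P10 and a lower level at P15 and P21 that stayed above P1. In estimated alignments, which give less weight to the shortest loci, the members held 1.19% of the library at P1, 28% at P3, 7.58% at P5 and 2.71% at P21.

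Of the 150 members, 132 had their highest value at P3, compared with 11.5% of the 5482 features with any value above 0. The highest value was that of P21 for 12 members (16.3% of these features), of P10 for 4 and of P1 and P7 for 1 each. P1 was the lowest age for 115 members, compared with 19.6% of all features, followed by P21 for 19 and P15 for 10. The mean over the ages chose the members and P3 weighs most in that mean, so the ranking was repeated without P3. Of the members, 143 were chosen again. Only 200 loci were eligible and the other ages enter both rankings, so much of this overlap was given in advance.

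**Figure D1:**
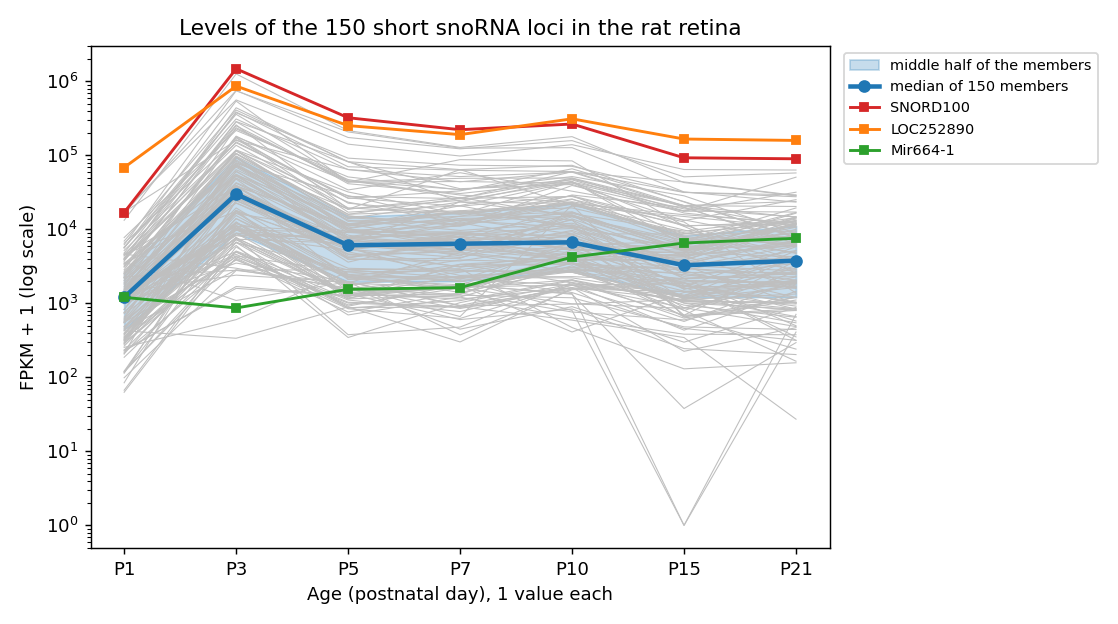
Level of each of the 150 members (grey lines), their median (blue line) and quartiles (blue band) at the 7 ages, 1 value each, as FPKM + 1 on a log scale. SNORD100 and LOC252890 are shown with most members at their highest at P3, while Mir664-1 had 867 FPKM at P3 and 7579 FPKM at P21.

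The step from P1 to P3 was compared on the scale of log2(FPKM + 1), on which a difference of 1 is a factor of 2 and small levels are understated. A locus was counted as higher or lower where it differed at least 2-fold. By this measure, 144 of the 150 members were higher at P3, compared with 20.1% of all 5491 features, and 1 was lower, compared with 27.2%. The median difference of the members was 4.90, and that of all features was -0.29. The members ranged from -1.72 to 8.81. With the members that had at least 10 alignments at P1, a limit set after the values were seen, 87 of 91 were higher.

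Other classes were set beside the members, since the P1 and P3 libraries differed from the others in their make-up. At P3, 39.4% of the alignments fell on miRNAs. The lowest share of the remaining ages was 57.3% and the highest 74.9%. At P1, 22.8% fell on long intergenic noncoding RNAs (lincRNAs), compared with 9.07% to 16.2% at the other ages. The snoRNA loci of at least 100 bases held 0.557% at P1 and 1.25% to 5.67% at the other ages. The miRNAs' median difference from P1 to P3 was -0.08. The 147 snoRNA loci of at least 100 bases had a median of 2.06, the 37 copies of SNORD115 and SNORD116 had 2.05, and the 50 eligible loci below the highest 150 had 1.85. Mitochondrial tRNAs (22 features) had a median of 2.03, small nuclear RNAs (208) 1.16 and small Cajal body RNAs (18) 0.99. The 32 snoRNA loci under 50 bases were at -0.24 and the 109 rRNA features at -0.27. Part of the gap between the members and the 50 loci below them is built into the choice, as a high P3 value raised the rank. Of the 935 features of other classes with the same length of 50 to 99 bases, 17.3% were at least 2-fold higher at P3 (median -0.33). Whether the preparation of the P1 or the P3 library took part in the difference was not tested. With 1 value per age, library preparation cannot be told apart from age.

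**Figure D2:**
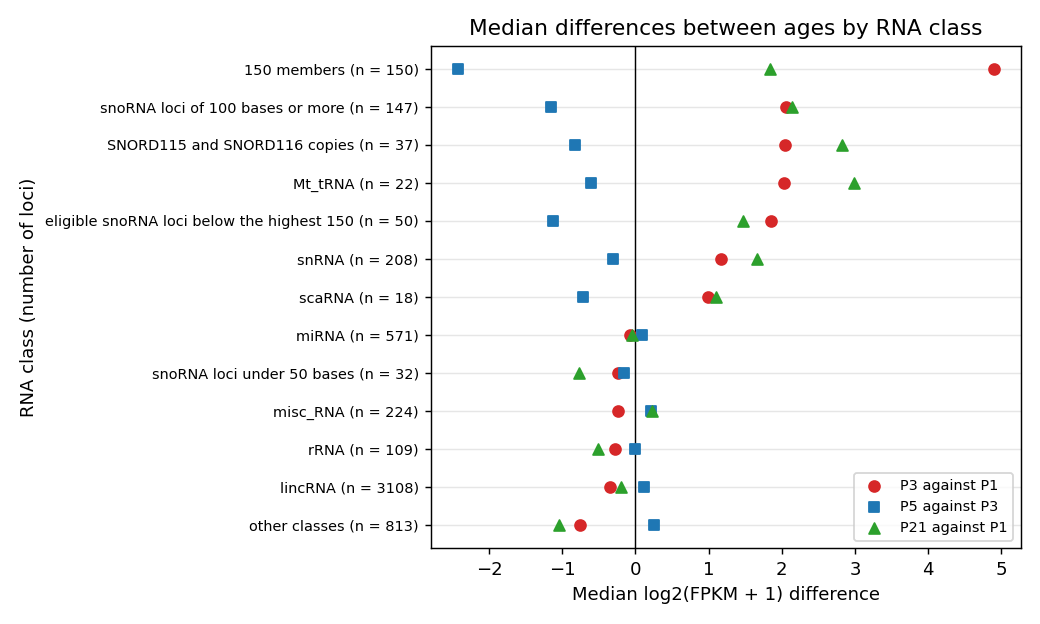
Median log2(FPKM + 1) difference of P3 against P1 (circles), P5 against P3 (squares) and P21 against P1 (triangles) for the 150 members and for other RNA classes of at least 10 loci, with the number of loci in brackets. The members lie at 4.90 for P3 against P1, and the next class, the snoRNA loci of 100 bases or more, at 2.06.

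Within the set, the difference from P1 to P3 hardly followed the length. Its median was 4.88 for the 27 members of 50 to 69 bases, 5.18 for the 55 of 70 to 79 bases, 4.52 for the 41 of 80 to 89 bases and 4.82 for the 27 of 90 to 99 bases. The largest peaks over both neighbouring ages were those of 3 SNORD113 copies, a SNORD103 locus and SNORD49. One SNORD113 copy (chr6:133828792-133828866) had 207 FPKM at P1, then 93151 at P3, 10244 at P5 and 17007 at P7, and later 11185 at P10, 1546 at P15 and 3980.3 by P21, and its P3 value was 450.2-fold (95% counting interval from 129 to 1551) above P1, where it rested on 2 alignments. The SNORD103 locus (chr5:148905863-148905945), an 18S guide, had 83.6 FPKM at P1, then 24837 at P3, 4653 at P5 and 3142 at P7, and later 3417 at P10, 1466 at P15 and 1207 by P21, with 1 alignment at P1. SNORD49 (chr10:48927721-48927791), a 28S guide, had 5584 FPKM at P1, then 541558 at P3, 43655 at P5 and 87564 at P7, and later 84254 at P10, 11080.1 at P15 and 12796 by P21 and was 97.0-fold (95% counting interval from 73.1 to 129) higher at P3 than at P1. Of these loci only SNORD49 had more than 10 alignments at P1, 48, so the size of the other peaks is poorly known.

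From P3 to P5, 128 of the 150 members were at least 2-fold lower, compared with 18% of all features, and 2 were higher, compared with 17.6%. The median difference was -2.42 for the members and 0.04 for all features. P5 did not return to the level of P1, and its median difference from P1 was 2.48. Most other snoRNA classes also fell from P3 to P5. Their medians were -1.16 for loci of at least 100 bases, -1.12 for the 50 eligible loci below the highest 150 and -0.83 for the SNORD115 and SNORD116 copies. The snoRNA loci under 50 bases were at -0.15, miRNAs at 0.09 and lincRNAs at 0.12. The 2 members that were higher at P5 than at P3 were SNORA24 and SNORA8, both with fewer than 10 alignments at P3. The P3 library enters this comparison and the one with P1, so that their differences are not independent.

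Later steps were smaller. From P5 to P7, 8 members were at least 2-fold higher, compared with 19.6% of all features, and 12 were lower, compared with 12.1%. SNORD44, a guide in Gas5, had 6389 FPKM at P5 and 23604 at P7, and SNORD96, a guide of 5.8S rRNA in Rack1, had 18677 and 64209. SNORD41 had 82182 FPKM at P5 and 23663 at P7, the opposite direction. These loci were picked for the size of this step after their values were seen. From P7 to P10, 31 members were higher, compared with 16.2% of all features, and 4 were lower, compared with 29.8%. From P10 to P15, by contrast, 95 members were lower, compared with 26.5% of all features, and 1 was higher, compared with 18.7%, with a median difference of -1.26. From P15 to P21, 35 were higher, compared with 24.7%, and 21 were lower, compared with 14.7%, so the last step was mixed.

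**Figure D3:**
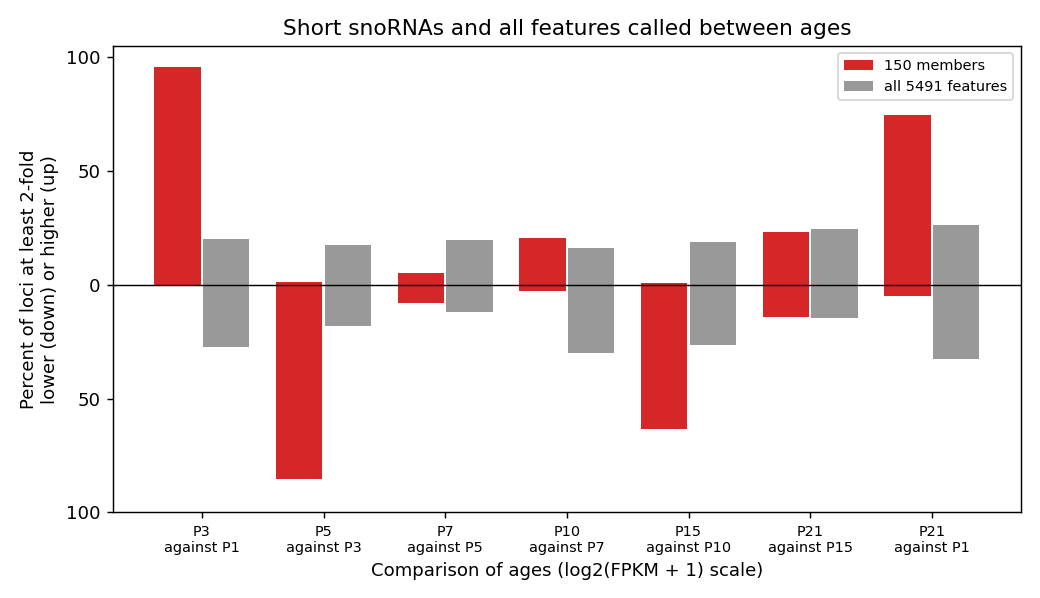
Percent of loci at least 2-fold higher (upward bars) or lower (downward bars) between ages, for the 150 members (red) and all 5491 features (grey), on the log2(FPKM + 1) scale. The red bars pass the grey ones widely upward for P3 against P1, with 144 members higher, and downward for P5 against P3 and P15 against P10, with 128 and 95 members lower.

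Many members lie close together. Joining members on 1 strand whose starts are at most 5000 bases apart gave 31 clusters with 110 members, and 15 clusters had at least 3. In 29 of the 31 clusters every member was at least 2-fold higher at P3 than at P1. The exceptions were the largest SNORD113 cluster and a pair of SNORD5 with SNORA8. The cluster of the noncoding gene Gas5, which is spliced and carries its snoRNAs in introns, spans chr13:78852741-78855688 on the forward strand and holds 9 members, snosnR60_Z15 among them. The lists of hosts and targets used below were made by symbol, and the targets were not checked against the snoRNA sequences.

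All 8 members with Gas5 symbols, SNORD44, SNORD47, SNORD74, SNORD75, SNORD77, SNORD78, SNORD79 and SNORD81, were at least 2-fold higher at P3 than at P1 (median 5.51) and lower at P5 than at P3 (median -2.33). Their summed level was 33859.8 FPKM at P1, then 1625469.9 at P3, 324128 at P5 and 285392 at P7, and later 351472 at P10, 114909.6 at P15 and 108933 by P21. SNORD74 held the largest part, and SNORD77 had 5666 FPKM at P1, 310616 at P3 and 6392 at P21. SNORD77 (chr13:78854975-78855051) lies within snosnR60_Z15 (chr13:78854972-78855052), so their reads cannot be told apart, and snosnR60_Z15 is not part of the sum. All 8 were also lower at P15 than at P10 (median -1.58). By P21 they had come apart, with 4 of the 8 at least 2-fold higher than at P1. SNORD75 had 1406 FPKM at P1 and 23857 at P21, 17.0-fold (95% counting interval from 8.89 to 32.3) higher, whereas SNORD79 had 4374 and 2565 FPKM. Loci of a single host transcript thus differed in their net course from P1 to P21.

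The Snhg1 gene, another noncoding host, was represented by SNORD25, SNORD26, SNORD28, SNORD29 and SNORD30. All 5 were higher at P3 than at P1 (median 4.78) and lower at P5 than at P3. SNORD30 was the highest, with 5196 FPKM at P1, then 147866 at P3, 27923 at P5 and 26026 at P7, and later 60245 at P10, 31527 at P15 and 29244 by P21. At P10 it reached a second, lower maximum. Only 2 of the 5 were at least 2-fold lower at P15 than at P10. The 4 members of SNORD50, from the noncoding host Snhg5, were also all higher at P3 than at P1 (median 4.49), and 3 of the 4 were lower at P5.

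Hosts that encode ribosomal proteins also gave members with a peak at P3. For Rpl13a, 3 of 3 members were higher at P3 (median 5.59), for Rpl7a 7 of 7 (5.24), for Rpl17 3 of 3 (5.04), for Rpl4 4 of 4 (5.26) and for Rpl23a 2 of 2 (6.76). Rack1, a ribosome-bound scaffold protein, had 3 of 3 (6.32), and Nop56, a core protein of the box C/D particle itself, had 3 of 3 (4.52). The Rpl7a list includes SNORD24 and SNORD36 loci at 2 places of chromosome 3, which can share reads. In Rack1, SNORD95 had 5670.1 FPKM at P1, 359108 at P3, 45044 at P5 and 11566 at P21 for its higher locus. In Rpl17, 2 of the 3 SNORD58 loci were at least 2-fold lower at P21 than at P15. The SNORD58 locus at chr18:70970450-70970515 had 4088 FPKM at P1, then 151932 at P3, 26593 at P5 and 20564 at P7, and later 28233 at P10, 12595 at P15 and 1380.1 by P21, and P21 was its lowest age.

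U14 (SNORD14), which acts in the cleavage that frees 18S rRNA, had the smallest median of the host lists. Its 2 members had 1009 and 489 FPKM at P1, 3505 and 4262 at P3, 1965 and 1035 at P5 and 2052 and 2280.1 at P21. Both were at least 2-fold higher at P3 than at P1, and their median difference was 2.46. Neither locus rested on more than 13 alignments at P1. Whether U14 differs from the other members was not tested.

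By target, there were 36 guides of 18S rRNA and 50 guides of 28S rRNA. At P3, 36 of 36 and 49 of 50 were at least 2-fold higher than at P1, with medians of 4.97 and 4.97. At P5, 35 and 47 were lower than at P3, with medians of -2.44 and -2.53. The exception among the 28S guides was the partly covered SNORND104 locus. At P15, 27 and 36 were lower than at P10. At P21, 22 of the 36 and 39 of the 50 were higher than at P1, with medians of 1.16 and 1.73, and the medians from P15 to P21 were -0.15 and 0.24. Whether the 18S and 28S guides differ was not tested. The summed level of the 18S guides was 94661 FPKM at P1, then 5057585 at P3, 1027445 at P5 and 790759.6 at P7, and later 990119 at P10, 356373 at P15 and 342575 by P21, and that of the 28S guides was 130033 FPKM at P1, then 6386701 at P3, 1099637 at P5 and 922458 at P7, and later 1278419 at P10, 455271 at P15 and 429747 by P21. Both sums were highest at P3 and lowest at P1. The guides of 5.8S rRNA were SNORD71 and SNORD96. Their median difference from P1 to P3 was 6.63, and both were also higher at P21 than at P1. Apart from the SNORD113 copies described below, there were 6 orphan loci, SNORD64, SNORD83, SNORD86 and SNORD101 by symbol. These 6 were higher at P3 (median 4.83) and lower at P5. SNORD101, which lies beside SNORD100 in Rps12, was the highest of them, with 3088 FPKM at P1, then 74404 at P3, 9669 at P5 and 11056 at P7, and later 22111 at P10, 6837 at P15 and 11269.6 by P21. SNORD86, from Nop56, had 318 FPKM at P1, then 7307 at P3, 1340.5 at P5 and 603 at P7, and later 839.9 at P10, 244 at P15 and 202 by P21 and was the locus among them that ended below its P1 level, on 4 alignments at P1. No member had the symbol of a guide of U6 small nuclear RNA. The 25 members in no list had a median of 4.97, and 21 of them were higher at P3.

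Loci that share a symbol did not always share a course. The log2 difference from P1 to P3 was 5.66 and 5.70 in the 2 snoR38 loci, 5.05 and 5.16 in the 2 SNORD70 loci and between 4.81 and 5.22 in the 3 SNORD58 loci. SNORD45 had neighbouring loci on chromosome 2 with differences of 6.80 and 2.72. The higher locus had 3955 FPKM at P1 and 439860 at P3, and the lower one had 3430.1 and 22669.5 FPKM, so the loci were close at P1 and far apart at P3. SNORD88, whose loci lie on chromosome 1, ranged from 3.04 to 4.95 over 3 loci. When the loci of each symbol were summed, 81 of the 85 symbols were at least 2-fold higher at P3 than at P1. The SNORD45, SNORD70 and SNORD88 loci were named after their values were seen.

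**Figure D4:**
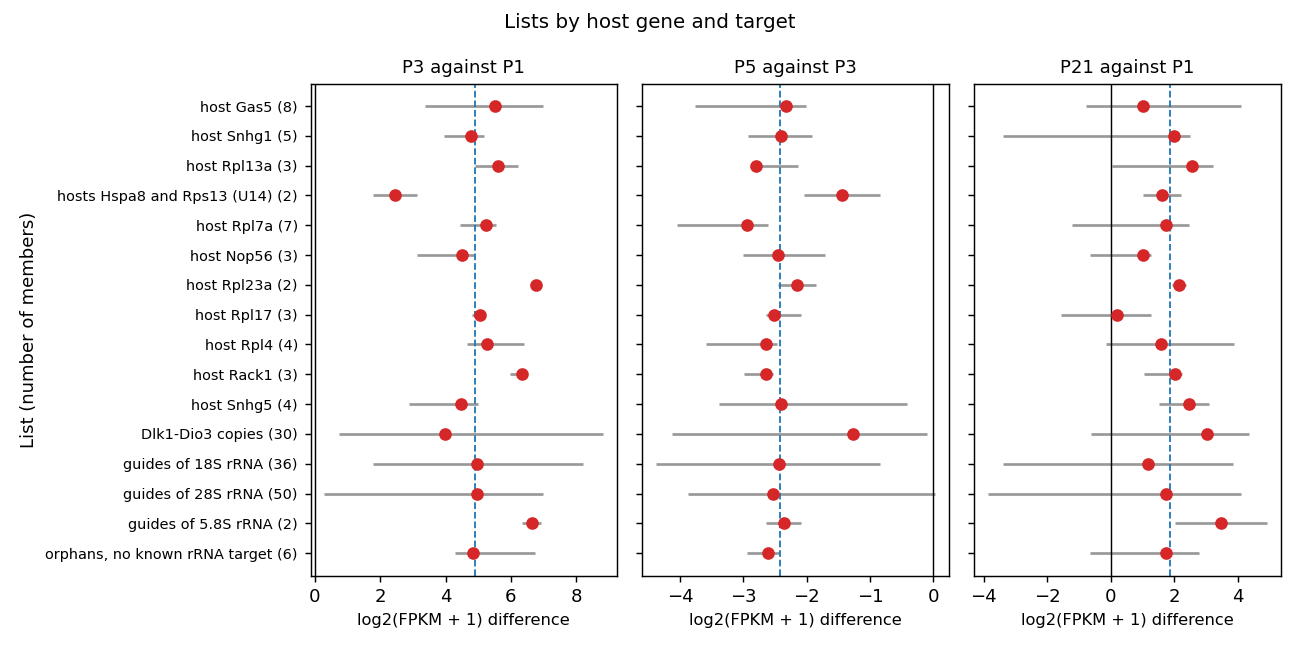
Log2(FPKM + 1) differences of the lists by host gene and target with at least 2 members, for P3 against P1, P5 against P3 and P21 against P1. Dots are medians, grey lines run from the lowest to the highest member, and the dashed line is the median of all 150 members (4.90, -2.42 and 1.84). For P3 against P1, the widest range is that of the 30 Dlk1-Dio3 copies.

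The SNORD113/SNORD114 family lies in the imprinted Dlk1-Dio3 region, where copies arranged in a row are expressed from the maternal chromosome, and has no known rRNA target. It gave 30 members, all with the symbol SNORD113 and on the forward strand of chromosome 6. The widest gap between neighbouring starts, 24695 bases, separates 22 copies at chr6:133759956-133796051 from 8 copies at chr6:133820661-133829734. The split was made after the values were seen and is a description. Over the first 22 copies, the lowest, median and highest levels were 97.8, 1181 and 17148 FPKM at P1, 1595, 8849 and 159328 at P3, 434, 3844 and 43777 at P15 and 351, 10829 and 28749.6 at P21. Over the other 8 copies they were 66.1, 310.4 and 828 FPKM at P1, 6757, 55394 and 95283 at P3, 0, 905 and 1682 at P15 and 409, 2187 and 4061 at P21. The groups overlapped at every one of these ages, but their courses parted. The median difference from P1 to P3 was 2.96 in the larger block and 6.95 in the smaller. At P1 the 8 copies of the smaller block together rested on 30.0 alignments and the 22 of the larger on 447. The size of the difference per copy is therefore poorly known in the smaller block.

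In the larger block, the median level was 8849 FPKM at P3, 6008 at P5, 3792 at P10, 3844 at P15 and 10829 at P21, a fall followed by a rise. Its copies went both ways from P3 to P21, with differences from -5.40 to 0.79 and a median of -0.37. At P21, 9 of the 22 copies were at least 2-fold lower than at P3, compared with 128 of the 150 members. For this pair of ages the median difference of all features was -0.09, and their share called was not counted. The highest value was that of P21 for 9 of the 22 copies and of P3 for 13. Among the features with any value above 0 these shares were 16.3% and 11.5%. In the smaller block the median difference from P3 to P21 was -4.55, and all 8 copies were highest at P3. From P10 to P15, 8 of 8 copies of the smaller block were at least 2-fold lower (median -3.18) and 2 of 22 of the larger (median -0.04). The smaller block as a whole held 604 estimated alignments at P10 and 82.8 at P15. A copy of the larger block at chr6:133787033-133787117 had 1319 FPKM at P1, then 9818 at P3, 9136 at P5 and 8896 at P7, and later 6236 at P10, 6806 at P15 and 16923 by P21. By contrast, the copy at chr6:133825647-133825721 in the smaller block had 828 FPKM at P1, then 95283 at P3, 11411 at P5 and 17688 at P7, and later 10924 at P10, 1119 at P15 and 4061 by P21. At P15, 2 copies of the smaller block, at ranks 120 and 133, were listed at 0, where the 3 alignments that a count of 0 allows would be worth 273 and 174 FPKM. The most abundant copy of the family, at chr6:133795080-133795160 near the end of the larger block, had 17148 FPKM at P1, then 159328 at P3, 64435 at P5 and 43978 at P7, and later 59495 at P10, 43777 at P15 and 28749.6 by P21 and was highest at P3 and lowest at P1. Several copies of the larger block had nearly equal levels, for instance 12166, 12295 and 12073 FPKM at P21, and near-identical copies can share reads.

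**Figure D5:**
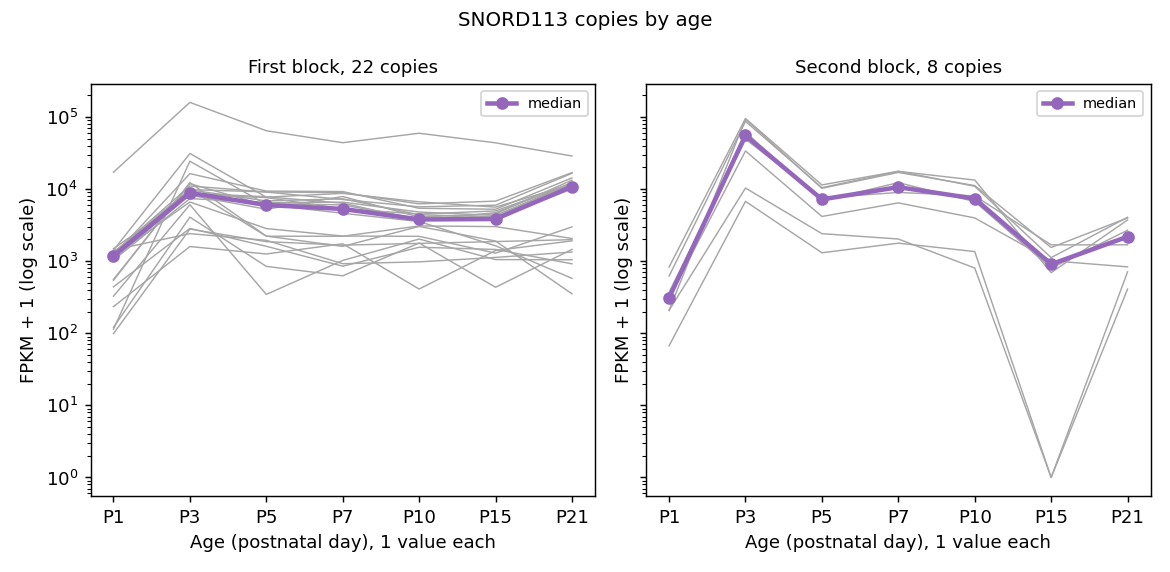
Level of each of the 30 SNORD113 copies (grey) and their median (purple) by age as FPKM + 1 on a log scale, for the block of 22 copies (left) and the block of 8 copies (right). The left median is 8849 FPKM at P3 and 10829 at P21, and the right one is 55394 and 2187, while lines that reach 1 on the axis are 2 copies listed at 0 at P15.

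Few members departed from the peak at P3. Of the 6 loci that were not at least 2-fold higher at P3 than at P1, 5 were loci that spanned less than 80% of their gene. SNORA70 was the only member at least 2-fold lower, with 3615 FPKM at P1, then 1093 at P3, 1956 at P5 and 374 at P7, and later 1529 at P10, 1913 at P15 and 316 by P21 and a P3 to P1 difference of -1.72 (95% counting interval from -2.71 to -0.74). SNORA17 had 4634 FPKM at P1, then 2986 at P3, 1566 at P5 and 1317 at P7, and later 5307 at P10, 1903 at P15 and 837 by P21. SNORA8 had 425 FPKM at P1, then 337 at P3, 897 at P5 and 300.2 at P7, and later 1587 at P10, 2182 at P15 and 2297 by P21 and rested on 2 alignments at P1 and 1.5 at P3. The interval of the P3 to P1 difference of SNORA17 included 0. Mir664-1 had 1206 FPKM at P1, then 867 at P3, 1548 at P5 and 1632 at P7, and later 4219 at P10, 6543 at P15 and 7579 by P21. It was lowest at P3 and highest at P21, where it was 6.29-fold (95% counting interval from 3.44 to 11.5) above P1. The SNORND104 locus of 50 bases, which shares its symbol with a guide of 28S rRNA, had 2279 FPKM at P1, then 2805 at P3, 2854 at P5 and 2941 at P7, and later 470.2 at P10, 129 at P15 and 157 by P21, and it was low from P10 on, with 1.70 alignments at P21. The sixth was a SNORD113 copy at rank 139, with 1428 FPKM at P1 and 2408 at P3. SNORA24, the remaining SNORA locus, had 253 FPKM at P1, then 602 at P3, 2668 at P5 and 2751 at P7, and later 2758 at P10, 2609 at P15 and 2625 by P21, with 1 alignment at P1 and 2.3 at P3. Without the SNORA and miRNA names, 143 of 145 members were higher at P3 and none was lower.

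Other loci were highest at an age later than P3 although they were also higher at P3 than at P1. A SNORD18 locus in Rpl4 (chr8:69125343-69125413) had 116 FPKM at P1, then 9932 at P3, 1718 at P5 and 662 at P7, and later 21319 at P10, 659 at P15 and 240.1 by P21, so that P10 stood alone. The other 2 SNORD18 loci had 13864 and 4276 FPKM at P10 and were highest at P3. A SNORD91 locus had 4380.5 FPKM at P3 and 5829 at P21, and a SNORD50 locus had 1689.6 at P3 and 3516 at P10. These loci were named after their values were seen.

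Over the whole period, 112 of the 150 members were at least 2-fold higher at P21 than at P1, compared with 26.4% of all features, and 7 were lower, compared with 32.4%. When each library was scaled to its miRNA total, these numbers were 83 and 13. The median difference was 1.84 as deposited, and that of all features was -0.15. It was 2.98 for mitochondrial tRNAs, 2.83 for the SNORD115 and SNORD116 copies and 2.14 for snoRNA loci of at least 100 bases. Small nuclear RNAs had 1.66, the 50 eligible loci below the highest 150 had 1.46, and miRNAs and lincRNAs had -0.05 and -0.20. A rise of this size was thus not particular to the members. Among the members, the largest rise was that of SNORD71, a guide of 5.8S rRNA. SNORD71 had 652 FPKM at P1, then 79704 at P3, 18764 at P5 and 26987 at P7, and later 15015 at P10, 7074 at P15 and 19469.6 by P21. Its P21 level was 29.9-fold (95% counting interval from 15.1 to 58.7) above P1, where it rested on 8 alignments. A snoR38 locus had 829 FPKM at P1, then 42049 at P3, 7694 at P5 and 13419 at P7, and later 16339.6 at P10, 9449.7 at P15 and 14312 by P21, and P21 was 17.3-fold (95% counting interval from 9.82 to 30.3) above P1. The other 3 of the 5 largest rises were SNORD113 copies, at ranks 43, 93 and 128, which rested on 2, 9 and 1 alignments at P1, so that their place in this order is poorly known. For these loci P3 was still the highest age, so the rise to P21 followed a fall from P3.

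The largest falls from P1 to P21 were those of the SNORND104 locus of 50 bases, SNORA70, SNORD28, SNORA17 and a SNORD58 locus. SNORD28, an 18S guide in Snhg1, had 286 FPKM at P1, then 6640.3 at P3, 872 at P5 and 899.8 at P7, and later 593 at P10, 344 at P15 and 26.2 by P21, and its value at P21 corresponds to 0.8 alignments, and that at P1 to 3. Both lie at or under the floor of 3 alignments, so no ratio is given for SNORD28. The log2 difference of P21 from P1 was -1.57 (95% counting interval from -2.36 to -0.77) for the SNORD58 locus. Both had a peak at P3 before they fell. The SNORA loci and the SNORND104 locus had none.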

How the data were processed

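Small RNA of the rat retina was measured at 7 ages, with 3 retinas pooled per age and the sequencing of each pool repeated. The authors mapped trimmed reads to Ensembl noncoding transcripts and obtained FPKM per locus with Cufflinks and Cuffdiff 2.2.1.3, per the submitters' processing notes and methods. The library normalization and the counting of reads shared by loci are not given in the sources used here. The deposited table compares ages in 21 pairs, and the FPKM of a locus and age was the same in every pair (0 differing values). Its fold change, p-value and q-value columns hold the authors' own comparisons and were not used. Gene positions are those of Rnor_6.0 in the table.

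Differences were taken on log2(FPKM + 1) and called at 2-fold, a pseudocount of 1 being added to the deposited FPKM. Alignments were estimated from the steps between low FPKM values (tolerance 0.0004), found for 363 of 724 locus lengths, and the finding of steps was tested on simulated data. With 1 value per age there was no test. The members and lists were chosen with earlier results of these data known. Loci named were the 10 highest by mean, the 5 largest and smallest at each end of the P3 peak and of the P1 to P21 difference among loci above 0 in every library, the highest of each list and those next to the rank limit. Other ranking rules, scalings, pseudocounts (0.1 and 10), a 1000 FPKM filter, summing by symbol and leaving out each age were alternatives. Python 3.11.15, numpy 2.4.6, pandas 2.3.3, scipy 1.17.1 and matplotlib 3.10.9 were used. The list of a further host gene is not reported here.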

Additional observations from a re-analysis of the deposited data

How the results depend on the processing

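No count or median changed direction. The medians from P1 to P3 and from P3 to P5 stayed within a factor of 1.5 under all 14 alternatives each. Members at least 2-fold higher at P3 than at P1 numbered 81 of 85 when the loci of a symbol were summed and 87 of 91 with at least 10 alignments at P1. Those lower numbered 3 when ranked without P3, 3 when ranked by the median, 12 over all 200 eligible loci and 0 without SNORA and miRNA names. From P3 to P5, 80 symbols and 76 loci with at least 10 alignments at P1 were lower, and higher were 4 when ranked without P3, 9 over all eligible loci and 0 when ranked by mean alignments, without SNORA and miRNA names or with at least 10 alignments at P1. From P1 to P21, scaling to the miRNA total gave 83 higher, 13 lower and a median of 1.22, all eligible loci gave 15 lower, symbols gave 61 higher and 3 lower, and at least 10 alignments gave 65 and 4. The cause was not tested, except that the sums by symbol and the alignment limit leave fewer loci. The alternatives by mean alignments, by name and by alignments at P1 were chosen after seeing the data. Leaving out 1 age at a time, the highest sum fell on day 3, and on day 10 only without P3. This outcome was fixed by the sums, since leaving out an age other than the highest cannot move the highest. No paired analysis was possible because each age has 1 value. Depth limits the ratios to P1, where 59 members had fewer than 10 alignments.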

Other observations

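From P7 to P10, 31 of the 150 members were at least 2-fold higher, a share near the 16.2% of all features. Among them were 3 of the 5 Snhg1 members, SNORD29, SNORD30 and SNORD26. SNORD52, a neighbour of SNORD48, had 11170.1 FPKM at P7, 39205 at P10 and 17627 at P15. SNORD98 had 16075, 43543 and 20860.3 FPKM, SNORD111 had 20956, 43535 and 7979, and snoMBII-202 had 4387, 16978 and 5498. In these loci P10 was above both P7 and P15. SNORD48 itself had 128074 FPKM at P7 and 179064 at P10, under the 2-fold limit. All loci were named here after their values were seen, and with 1 value per age no test of the P10 values was possible.

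The SNORD18 locus with 21319 FPKM at P10 rested on 190 alignments there and on 10 at P7, and the SNORD18 locus nearest to it in rank had 38.1 alignments at P10. The 3 SNORD88 loci were all higher at P21 than at P1, with 3222, 842 and 1213 FPKM at P21 against 1244, 353 and 217 at P1.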
